A study of Mus musculus with 6 samples.

Results

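The immunoglobulin heavy and light chain genes of a bone marrow culture were examined in RNA sequencing libraries from old and young mice. The genes were those of the heavy chain constant regions, the kappa and lambda constant regions and the variable (V) and joining (J) segments whose counts summed to 10 or more over the 6 libraries, so the genes were selected on their summed counts. This rule gave 93 of 39017 gene identifiers in the deposited count table, and 93 of the 232 gene models that carry such a symbol. They comprised 58 kappa V genes (Igkv), 23 heavy chain V genes (Ighv), 3 lambda V genes (Iglv), 7 heavy chain constant genes and 2 light chain constant genes. No J segment reached the sum, and 1 of the 93, Igkv11-106, is annotated as a pseudogene. The rule used the counts of both ages together, and 90 of the 93 genes reached 10 in the old libraries whatever their young counts, against 18 in the young libraries alone. For the genes that did so only in old libraries a higher value in old libraries was partly set by the choice, and counts over them are given as a description.

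The old group held 3 libraries from wild-type BALB/c mice of more than 78 weeks, and the young group held 3 libraries from wild-type BALB/c mice of 3 weeks. In both, marrow freed by crushing limb bones was cultured, the cells that did not adhere were removed, and the adherent cells were expanded and described by the submitters as macrophages positive for F4/80 and CD169. Each library was made from RNA of 10000 cells. The labels do not say whether the libraries of an age came from separate animals, and p-values here therefore reflect only how far these libraries spread, which may be technical.

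An antibody is built of paired heavy and light chains. During B cell development V(D)J recombination joins V, J and, in heavy chains, D segments into one exon that is spliced to a constant region, so that each B cell uses essentially one heavy and one light chain rearrangement. The heavy chain constant region sets the isotype: Ighm encodes IgM, the first to be made, and class switching replaces it by IgG, IgE or IgA. Light chains are kappa or lambda, and in mice kappa prevails. Bone marrow is both the site where B cells form and a home of long-lived plasma cells, which make antibody RNA in very large amounts, whereas macrophages bind antibody through Fc receptors and are not known for rearranging these genes.

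The V genes on which the results turn are shown by the last 60 bases of their coding segment, which run into the third complementarity-determining region where each rearrangement is joined. The sequences are those of the GENCODE release M21 models on GRCm38 (mm10), which is a C57BL/6J genome and not BALB/c, and are written 5′ to 3′ on the gene's own strand. Capitals mark the codon of the conserved second cysteine, found as the last TGT or TGC preceded by the letters TANTNN on the coding strand. This motif was present in 197 of 206 V models that are not annotated as pseudogenes (95.6%). The first 7 are kappa V genes that lead the kappa counts of a library or of the whole series, the next pair are lambda V genes, and the last 3 are the heavy chain V genes that led the libraries with heavy chain V counts.
Igkv14-126, chr6:67896583-67896642, plus strand: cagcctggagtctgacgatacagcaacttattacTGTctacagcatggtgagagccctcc
Igkv3-10, chr6:70573171-70573230, plus strand: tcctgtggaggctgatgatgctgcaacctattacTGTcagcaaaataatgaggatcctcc
Igkv1-110, chr6:68271208-68271267, plus strand: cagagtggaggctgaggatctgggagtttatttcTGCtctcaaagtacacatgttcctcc
Igkv15-103, chr6:68437866-68437925, plus strand: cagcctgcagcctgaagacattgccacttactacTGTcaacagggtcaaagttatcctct
Igkv3-1, chr6:70704118-70704177, plus strand: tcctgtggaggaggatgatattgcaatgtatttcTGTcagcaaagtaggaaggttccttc
Igkv1-117, chr6:68121768-68121827, plus strand: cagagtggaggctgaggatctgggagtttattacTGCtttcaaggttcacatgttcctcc
Igkv17-121, chr6:68037259-68037318, plus strand: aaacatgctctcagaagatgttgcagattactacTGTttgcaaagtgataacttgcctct
Iglv1, chr16:19085017-19085076, minus strand: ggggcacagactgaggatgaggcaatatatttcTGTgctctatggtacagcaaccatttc
Iglv2, chr16:19260401-19260460, minus strand: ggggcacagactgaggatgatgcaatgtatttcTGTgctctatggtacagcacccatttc
Ighv11-2, chr12:114048241-114048300, minus strand: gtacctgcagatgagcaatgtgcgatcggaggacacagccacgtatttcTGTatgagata
Ighv7-1, chr12:113896408-113896467, minus strand: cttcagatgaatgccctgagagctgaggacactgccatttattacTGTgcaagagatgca
Ighv9-3, chr12:114140692-114140751, minus strand: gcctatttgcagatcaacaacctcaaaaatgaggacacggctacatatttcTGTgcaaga

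The 3 kappa genes Igkv3-10, Igkv15-103 and Igkv1-110 had no count in young libraries, whereas Igkv17-121 had none in old libraries. Iglv1 and Iglv2 resemble each other closely, and 1.7% of the 100-base windows of Iglv1 occur unchanged elsewhere among the gene models. Identical windows alone were counted, so this does not show how well reads of Iglv1 and Iglv2 were told apart. Of the 93 genes, 58 shared no such window with another gene, and 1, Igkv2-137, shared more than 50% of them. For this reason Igkv2-137 is uncertain: it also overlaps the exon of Gm42889 over 60.1% of its length.

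Total counts were 36136137 to 43367734 in old libraries and 34391206 to 35813492 in young libraries. In edgeR's quasi-likelihood test over 15567 genes, 909 were higher in old libraries (5.84%) and 731 lower (4.7%) at a Benjamini-Hochberg adjusted p under 0.05. Libraries of one age differed beyond sampling noise, with a chi-square per degree of freedom of 23.25 to 31.51 between old libraries, and of 28.26, 111.87 and 118.26 between young libraries, the 2 highest for the pairs with young replicate 3. The genes of the submitters' 2 markers, Adgre1 (F4/80) and Siglec1 (CD169), were detected in every library. Adgre1 averaged 226 ± 25.3 CPM (counts scaled to a library of 1000000) in old and 473 ± 77.5 in young libraries, and Siglec1 43.3 ± 5.28 in old and 131 ± 6.61 in young libraries (SD, n = 3 each).

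Immunoglobulin RNA was more abundant in every old library. All 232 models together held 32538, 30707 and 38074 counts in old replicates 1, 2 and 3, against 3150, 3378 and 1791 in young replicates 1, 2 and 3. This was 0.0750%, 0.0807% and 0.105% of all counts in old libraries, against 0.00916%, 0.00976% and 0.00500% in young libraries. Scaled to library size the sum averaged 866 ± 168 CPM in old and 79.6 ± 23.0 CPM in young libraries (SD, n = 3 each), and the groups did not overlap. In such bulk libraries fewer cells of a type and less RNA per cell cannot be told apart.

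Of the 93 genes, 35 had counts high enough for the test, and 58 did not, with summed counts of 10 to 480. Among the 35, 27 were higher in old libraries, against 5.84% of all genes tested, none was lower, also at an unadjusted p under 0.05 or by the other tools, and 8 were not called. The same comparison with no test gave 29 of the 35 with CPM ranges in old libraries wholly above those of young libraries, against 15.9% of all genes, and none wholly below, against 14.3%. The DESeq2 test called 28 higher, against 8.56% of genes, and limma-voom 23, against 6.05%. By class the higher calls were 6 of 6 heavy chain constant genes tested, 1 of 2 light chain constant genes, 17 of 22 kappa V genes, 2 of 3 heavy chain V genes and 1 of 2 lambda V genes. The median log2 fold change was 7.78 over the 35 genes and -0.01 over all genes tested. Because 18 of the 35 were at 0 in every young library and passed the low-count filter only through the old ones, these figures do not stand as support for a change of the family. The other 17 had at least 1 young count, but only 2 of the 35, Ighm and Igkc, had 10 or more counts in every young library. Most of the 17 thus also depended on the old libraries to be tested, and their values are a description as well. Of the 58 genes not tested, 45 had no young count.

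Ighm, the constant region of IgM on chromosome 12 (113418558 to 113422730, minus strand), was the most abundant heavy chain gene in all 6 libraries. It had 5821, 6619 and 9056 counts in old libraries, against 1742, 2125 and 1541 in young libraries. It averaged 185 ± 60.5 CPM in old and 51.9 ± 7.40 CPM in young libraries (SD, n = 3 each). The lowest old library lay well above the highest young one, and Ighm was higher in old libraries by 1.84 on the log2 scale (SE 0.24, adjusted p = 0.00401, edgeR). Ighm was also the only heavy chain constant gene with more than 19 counts in any young library. Membrane and secreted IgM come from the same gene and were not separated by these counts.

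Igha, the constant region of IgA (113254830 to 113260236 on chromosome 12), was the main switched isotype of the old libraries. It had 1557, 683 and 2499 counts in old libraries, against 0, 19 and 0 in young libraries. Its mean was 40.9 ± 26.2 CPM in old and 0.179 ± 0.310 CPM in young libraries (SD, n = 3 each), and old replicate 2 was the lowest of the old ones. The fitted log2 fold change was 7.78 (SE 0.98, adjusted p = 0.00382, edgeR), while limma-voom gave an adjusted p of 0.0510. The young level rests on replicate 2 alone: without it every young count is 0, no fold is defined, and the call holds. Igha entered the test through the old libraries, so these values are a description.

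The 4 IgG genes lie between Igha and Ighm on chromosome 12 and encode the IgG subclasses. Ighg1 (113325240 to 113330523) had 80, 250 and 364 counts in old libraries and 0 in all young libraries. Ighg2b (113302965 to 113307933) had 179, 107 and 417 counts in old libraries and 0 in all young libraries. Ighg2c (113285325 to 113288932) had 128, 77 and 48 counts in old libraries and 0 in all young libraries. These 3 genes were thus detected in each old library and in no young one. Set against a floor of 3 counts in the young libraries together, Ighg1 and Ighg2b were each at least 213-fold higher in old libraries, and Ighg2c at least 72.3-fold higher. The floor is a convention for counts of 0 and not a hard limit, here and for the folds below. They were among the genes called, but entered the test through the old libraries alone, so these values are a description. BALB/c mice carry an Ighg2a gene in place of the C57BL/6 Ighg2c, so the Ighg2c count is of reads assigned to the C57BL/6 model.

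Ighg3 (113356224 to 113361232) had 209, 207 and 27 counts in old libraries, against 2, 5 and 0 in young libraries. Old replicate 3, which had the most Ighg1 and Ighg2b, had the least Ighg3. Ighg3 was higher in old libraries by 5.69 on the log2 scale (SE 1.02, adjusted p = 0.0147, edgeR), but the call was lost without old replicate 1, without old replicate 2 or without young replicate 1 (highest adjusted p 0.0648) and under limma-voom (0.105). Ighg3 also entered the test through the old libraries, so these values are a description. Ighe, the constant region of IgE (113269260 to 113273248), had 0, 11 and 7 counts in old libraries and 0 in all young libraries, and was too low to test. Ighd, Iglc1 and Iglc3 matched no identifier and were not analysed here.

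**Figure D1:**
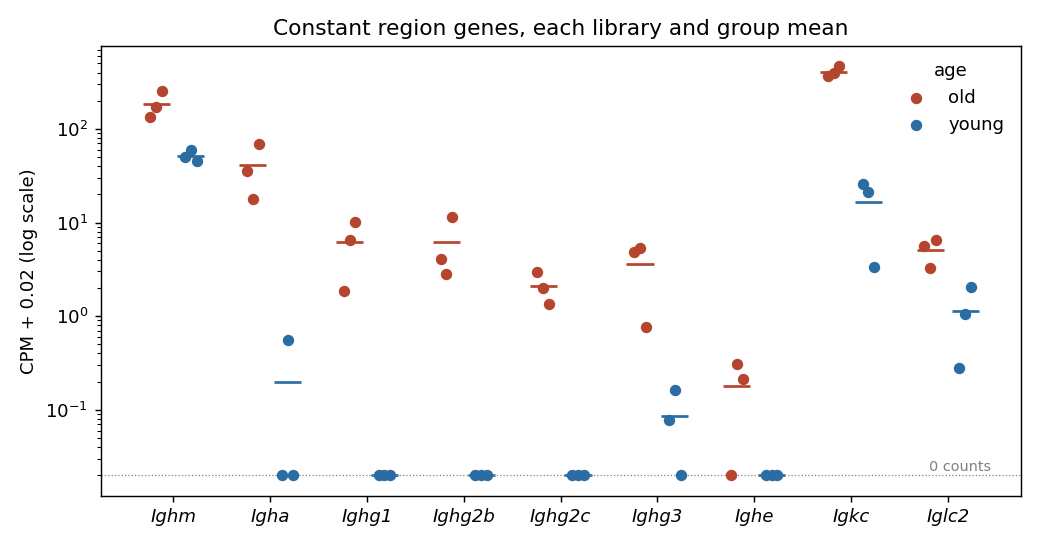
CPM (log axis) of the heavy and light chain constant region genes, with 1 point per library, a line at each group's mean, and old libraries left of young ones; a small constant was added so that libraries at 0 appear, on the dotted line. Ighm, Igkc and Igha lead in the old libraries, with mean levels of 185, 411 and 40.9 CPM, and Ighm leads in the young libraries at 51.9 CPM, where 4 of the 9 genes have no count.

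Within a library, IgM made up less of the heavy chain constant counts in old mice. The Ighm share was 73.0%, 83.2% and 72.9% in old libraries, against 99.9%, 98.9% and 100% in young libraries. Exact 95% Clopper-Pearson intervals, which cover counting error only, ran from 72.0 to 74.0%, 82.4 to 84.0% and 72.1 to 73.7% in old libraries, so old replicate 2 stood apart from the other two by more than counting error. The mean was 76.4 ± 5.92% in old and 99.6 ± 0.614% in young libraries (SD, n = 3 each). The groups did not overlap, and the difference was -23.2 percentage points, with an exact two-sided permutation p of 0.1, which is the smallest that 3 libraries against 3 can give, and 0.2 when adjusted over the 2 share tests made. Divided by exon length, the Ighm share was 78.2%, 86.7% and 78.9% in old libraries, against 99.9%, 99.2% and 100% in young libraries.

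Most of the switched counts of old libraries were IgA. The Igha share was 19.5%, 8.59% and 20.1% in old libraries. In young libraries it was 0.884% in replicate 2, and 0 in replicates 1 and 3, which allows shares of up to 0.172% and 0.195%. The 4 IgG genes together made up 7.47%, 8.06% and 6.89% in old libraries, against 0.115%, 0.233% and 0% in young libraries. The IgG share of old replicate 2, the highest, was thus paired with the lowest IgA share.

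The make-up of IgG differed from one old library to the next. Ighg1 was 13.4%, 39.0% and 42.5% of the IgG counts in old replicates 1, 2 and 3. Ighg2b was 30.0%, 16.7% and 48.7%, and Ighg2c 21.5%, 12.0% and 5.61%. Ighg3 was 35.1%, 32.3% and 3.15%. Old replicate 1 led with Ighg3, old replicate 2 with Ighg1 and old replicate 3 with Ighg2b. Young libraries held 2, 5 and 0 IgG counts, all of Ighg3, too few to give a make-up.

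**Figure D2:**
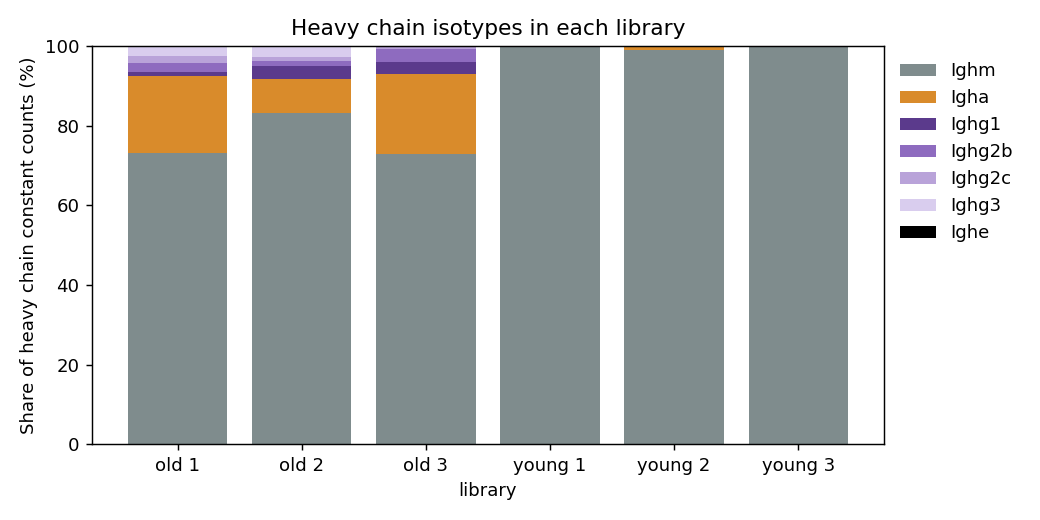
Share of heavy chain constant region counts (%) taken by each isotype gene, 1 stacked bar per library, old libraries left of young ones. Ighm is 73.0%, 83.2% and 72.9% in the old libraries and at least 98.9% in each young library, and the Igha band is the widest of the switched isotypes in each old library.

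Igkc, the constant region of all kappa chains (chromosome 6, 70726435 to 70726966, plus strand), was the most abundant immunoglobulin gene of the old libraries. It had 16248, 15213 and 16774 counts in old libraries, against 894, 753 and 111 in young libraries. It averaged 411 ± 49.4 CPM in old and 16.7 ± 11.8 CPM in young libraries (SD, n = 3 each). The old libraries were close to each other, whereas young replicate 3 was far below the other young ones. Igkc was higher in old libraries by 4.62 on the log2 scale (SE 0.69, 24.5-fold, adjusted p = 0.00873, edgeR), and by 4.13 to 5.06 when each library was left out, with the call kept each time.

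Iglc2, a lambda constant region (chromosome 16, 19198396 to 19200351, minus strand), had 244, 124 and 235 counts in old libraries, against 9, 37 and 69 in young libraries. It averaged 5.10 ± 1.70 CPM in old and 1.12 ± 0.899 CPM in young libraries (SD, n = 3 each). Young replicate 3, the lowest for Igkc, was the highest young library for Iglc2. The log2 fold change was 2.19 (SE 0.63) with an adjusted p of 0.0744 (edgeR), so Iglc2 was not called, although the ranges did not overlap. The DESeq2 test gave an adjusted p of 0.00348, and without young replicate 3 edgeR gave 0.0250 at a log2 fold change of 2.96.

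Iglc1 and Iglc3, the lambda constant regions to which Iglv1 is usually joined, were not analysed here, so lambda constant counts are those of Iglc2 alone. Lambda RNA joined to Iglc1 or Iglc3 is thus left out, and the kappa shares may be too high, unequally between libraries. Kappa made up 98.5%, 99.2% and 98.6% of the light chain constant counts in old libraries, against 99.0%, 95.3% and 61.7% in young libraries. The exact 95% interval of young replicate 3 was 54.1 to 68.8%, far from every other library. The mean was 98.8 ± 0.363% in old and 85.3 ± 20.6% in young libraries (SD, n = 3 each). The groups overlapped, and the difference of 13.45 percentage points had an exact two-sided permutation p of 0.3 (0.3 adjusted over the 2 share tests). Without young replicate 3 the difference was 1.62 points.

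The V genes also placed young replicates 2 and 3 lowest in kappa, but gave a lower kappa share in every library except young replicate 1. Kappa V counts were 95.2%, 97.3% and 94.2% of all light chain V counts in old libraries, against 99.2%, 81.2% and 52.9% in young libraries. In counts, Igkc stood to Iglc2 as 66.6, 123 and 71.4 to 1 in old libraries, against 99.3, 20.4 and 1.61 to 1 in young libraries. This ratio therefore spread over a much wider range among the 3 young libraries than among the 3 old ones, at young light chain totals of 903, 790 and 180 constant region counts. It leaves out lambda joined to Iglc1 or Iglc3, and the part that Iglv1 took of lambda V counts differed between libraries. The ratio of Igkc to Iglc2 is therefore not the full kappa to lambda ratio.

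The 3 lambda V genes are joined to lambda constant regions only. Iglv1 had 308, 186 and 424 counts in old libraries, against 4, 62 and 8 in young libraries. It was higher in old libraries by 3.47 on the log2 scale (SE 0.86, adjusted p = 0.0458, edgeR), a call that held only when young replicate 2 was left out and was lost without any other library. Iglv2 had 56, 0 and 42 counts in old libraries, against 0, 15 and 25 in young libraries, and the ages overlapped. Iglv3 had 9, 4 and 5 counts in old libraries, against 0, 3 and 0 in young libraries. Iglv1 made up 82.6%, 97.9% and 90.0% of lambda V counts in old libraries, against 100%, 77.5% and 24.2% in young libraries. In young replicate 3 the larger share, 75.8%, was of Iglv2, from 33 lambda V counts. For each 100 Iglc2 counts there were 153, 153 and 200.4 lambda V counts in old libraries, against 44.4, 216 and 47.8 in young libraries.

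The ratio of light to heavy chain counts also differed between these old and young libraries, and was not tested. Igkc counts per Ighm count were 2.79, 2.30 and 1.85 in old libraries, against 0.513, 0.354 and 0.0720 in young libraries. Per kilobase of exon the level of Igkc was 9.895, 8.15 and 6.57 times that of Ighm in old libraries, against 1.82, 1.26 and 0.255 times in young libraries. Every old library lay above every young one, and young replicate 3 was the only library with less Igkc than Ighm per kilobase.

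**Figure D3:**
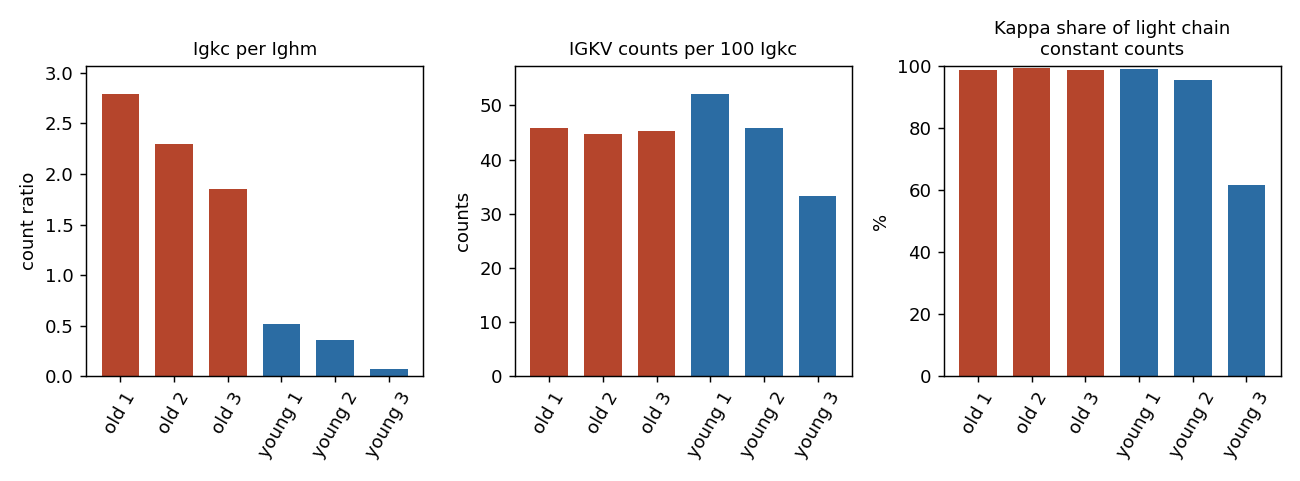
Chain balance in each library, 1 bar per library, old left of young: counts of Igkc per count of Ighm (left), kappa V counts per 100 Igkc counts (middle) and the kappa share of light chain constant region counts in % (right). Igkc per Ighm is 1.85 to 2.79 in old against 0.0720 to 0.513 in young libraries, kappa V per 100 Igkc is 44.7 to 45.8 in old and 33.3 to 52.1 in young libraries, and the kappa share is 98.5 to 99.2% in old libraries and runs down to 61.7% in young ones.

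Kappa V genes held 7435, 6803 and 7588 counts in old libraries, against 466, 345 and 37 in young libraries. For each 100 Igkc counts there were 45.8, 44.7 and 45.2 kappa V counts in old libraries, against 52.1, 45.8 and 33.3 in young libraries. The kappa V counts thus kept a near constant ratio to Igkc in the old libraries, at 45.2 ± 0.520 (SD, n = 3). Heavy chain V counts were fewer, at 258, 421 and 580 in old libraries, against 30, 12 and 0 in young libraries. This was 3.24, 5.29 and 4.67 per 100 heavy chain constant counts in old libraries, against 1.72, 0.558 and 0 in young libraries. The heavy chain V locus differs widely between BALB/c and C57BL/6, and the part of this in the low heavy chain V counts was not tested. The table has 108 of the 185 heavy chain V models and 103 of the 160 kappa V models of the annotation.

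Igkv14-126 was the kappa V gene with the largest count over the series. It is known in mice as the light chain partner of Ighv11-2 in B-1a cell antibodies that bind phosphatidylcholine. Igkv14-126 had 628, 1343 and 503 counts in old libraries, against 78, 84 and 0 in young libraries. It was higher in old libraries by 3.77 on the log2 scale (SE 0.93, adjusted p = 0.0451, edgeR), but the call held only when young replicate 3 was left out, was lost without any other library (highest adjusted p 0.168), and was lost in the DESeq2 test (0.105) and limma-voom (0.0777). Ighv11-2 had 29, 131 and 72 counts in old libraries, against 11, 6 and 0 in young libraries. Its adjusted p was 0.0545 (edgeR) at a log2 fold change of 3.61, so it was not called there, while the DESeq2 test gave 0.000907 and edgeR without young replicate 3 gave 0.0462. Both genes were highest in old replicate 2. Neither had a count in young replicate 3, which had no heavy chain V count at all and only 37 kappa V counts. Of the windows of Ighv11-2, 17.4% also occur in Ighv11-1, so reads there could be assigned to either gene.

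Other leading kappa V genes were not seen in any young library. Igkv3-10 had 384, 213 and 1281 counts in old libraries and 0 in all young libraries, and was the leading kappa V gene of old replicate 3. Igkv1-110 had 430, 652 and 607 counts, and Igkv15-103 had 281, 610 and 479 counts, in old libraries, and both had 0 in all young libraries. Igkv10-96 had 186, 165 and 415 counts in old libraries and 0 in all young libraries. These 4 genes encode kappa V segments of different families, and each was in all 3 old libraries. Set against the same 3 counts in the young libraries they were at least 576-fold, 504-fold, 411-fold and 232-fold higher in old libraries, in the order given. They too entered the test through the old libraries alone, so these values are a description, and the call of Igkv3-10 was lost without young replicate 3 (adjusted p = 0.0974, edgeR). Of the windows of Igkv3-10, 19.0% also occur in Igkv3-5, of Igkv1-110 16.2% in Igkv1-117, and of Igkv10-96 12.3% in Igkv10-94, so reads there could be assigned to either gene.

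Igkv4-53 had 363, 182 and 315 counts in old libraries, against 0, 4 and 0 in young libraries, and was called higher (log2 fold change 7.44, SE 0.72, adjusted p = 0.00145, edgeR). Its young level rests on replicate 2 alone, and it too entered the test through the old libraries, so these values are a description. Igkv3-1 and Igkv1-117, by contrast, had counts in young libraries close to those of some old ones. Igkv3-1 had 158, 423 and 202 counts in old libraries, against 157, 0 and 0 in young libraries (adjusted p = 0.444, edgeR). Without young replicate 1 its young counts are all 0 and it is called (adjusted p = 0.0132). Igkv1-117 had 139, 354 and 134 counts in old libraries, against 134, 98 and 0 in young libraries (log2 fold change 1.28, SE 1.05, adjusted p = 0.537, edgeR). Both were leading kappa V genes of a young library, and the ages overlapped for both. Igkv17-121 had 0 counts in all old libraries, against 0, 0 and 22 in young libraries, and those 22 counts were 59.5% of the kappa V counts of young replicate 3.

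The other 11 kappa V genes called higher had 13 to 347 counts in each old library and, in all but Igkv1-135 and Igkv1-88, 0 in every young library. The calls of Igkv3-5, Igkv4-61, Igkv3-12 and Igkv12-46 were lost without at least 1 library, with highest adjusted p-values of 0.142, 0.0558, 0.0548 and 0.0842 (edgeR). Igkv11-106, Igkv4-57 and Igkv12-44 were tested and not called, each with 1 old library at 0 to 2 counts. Igkv4-57 had 366, 1 and 47 counts in old libraries, against 0, 42 and 0 in young libraries, and Igkv12-44 had 115, 125 and 0 in old libraries, against 0, 44 and 11 in young libraries.

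Heavy chain V genes were led by Ighv7-1, a gene of the family known in mice for antibodies to phosphorylcholine. Ighv7-1 had 68, 118 and 85 counts in old libraries and 0 in all young libraries (at least 80.6-fold higher). Ighv9-3 had 20, 20 and 123 counts in old libraries and 0 in all young libraries (at least 50.8-fold higher). Both entered the test through the old libraries alone. The call of Ighv9-3 was lost in each of the 6 fits that left a library out, with a highest adjusted p of 0.102. Ighv1-9, Ighv2-2, Ighv6-3 and Ighv1-37 were seen only in old libraries, with 0 to 36 counts each, and were not tested. Ighv7-3 had 9, 9 and 20 counts in old libraries, against 10, 0 and 0 in young libraries. The leading heavy chain V gene was Ighv7-1 in old replicate 1, Ighv11-2 in old replicate 2 and Ighv9-3 in old replicate 3, and Ighv11-2 in young replicates 1 and 2. Young replicate 3 had no heavy chain V count.

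The V genes came as a broad set in old libraries and as a few genes in young ones. Kappa V genes with a count numbered 48, 54 and 46 in old libraries, against 8, 13 and 4 in young libraries. The leading gene held 8.45% (Igkv14-126), 19.7% (Igkv14-126) and 16.9% (Igkv3-10) of kappa V counts in old libraries, against 33.7% (Igkv3-1), 28.4% (Igkv1-117) and 59.5% (Igkv17-121) in young libraries. The effective number of kappa V genes, the inverse of the summed squared shares, was 26.1, 13.8 and 16.2 in old libraries, against 3.94, 5.47 and 2.23 in young libraries. At least 50% of the kappa V counts were held by the top 11, 6 and 7 genes in old libraries, against the top 2, 2 and 1 in young libraries. Every old library was more diverse than every young one by each of these measures.

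**Figure D4:**
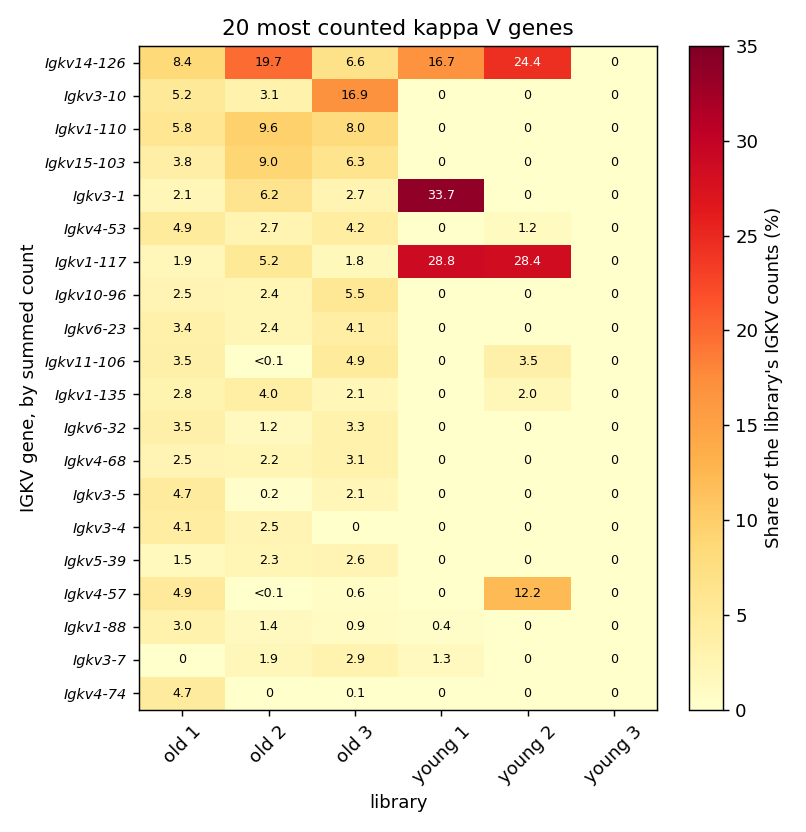
Share of each library's kappa V counts (%, colour and printed value) for the 20 kappa V genes with the largest summed count, old libraries left of young ones. No gene exceeds 19.7% in an old library, Igkv3-1 and Igkv1-117 lead young replicates 1 and 2 with 33.7% and 28.4%, and young replicate 3 is at 0 for all 20, since its leading gene, Igkv17-121, is not among them.

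Counting depth alone changes how many genes are seen, so the number expected at equal depth was computed exactly for draws of counts without replacement. At 37 counts, all that young replicate 3 had, 21.1, 18.2 and 18.3 kappa V genes were expected in old libraries, against 5.14, 8.36 and 4.0 in young libraries. At 345 counts the numbers were 37.3, 40.0 and 34.6 in old libraries, against 7.87 and 13.0 in young replicates 1 and 2. The order of the ages was thus the same at equal numbers of counts. Amplified reads from few starting molecules are not independent, so equal counts need not mean equal numbers of molecules.

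**Figure D5:**
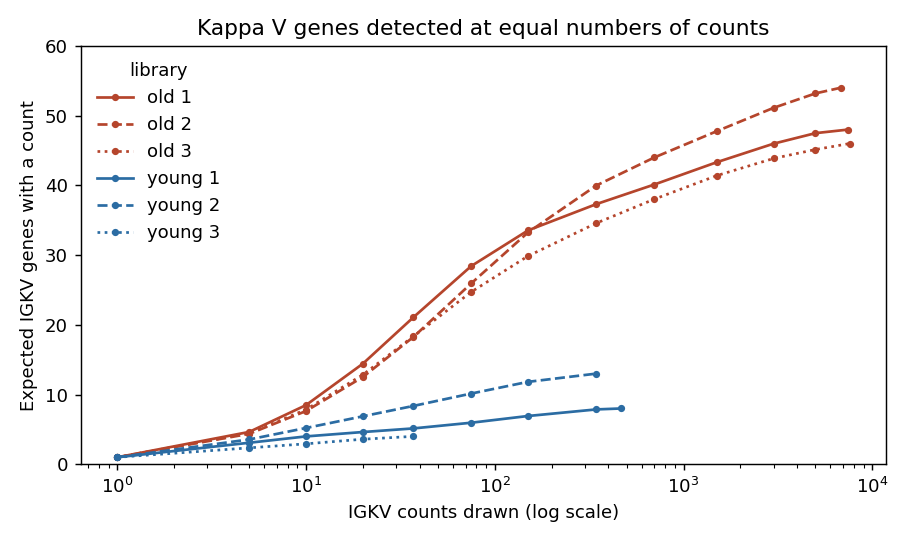
Expected number of kappa V genes with a count against the number of kappa V counts drawn (log axis), 1 line per library, old libraries in red and young ones in blue. At 37 counts the old libraries lie at 18.2 to 21.1 genes and the young ones at 4.0 to 8.36.

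Old libraries also shared more of their kappa V genes. Pairs of old libraries had 39, 36 and 39 kappa V genes in common, which was 72.2 to 84.8% of the genes of either library. Pairs of young libraries had 2, 0 and 1 in common, which was 0 to 25.0% of the genes of either library. Young libraries had far fewer kappa V counts, and sharing at equal numbers of counts was not computed. Across the kappa V genes seen in a pair of old libraries, the rank correlation of counts was 0.348 to 0.477 (58 to 63 genes), given as a description since the genes share libraries. Of the 84 V genes that met the sum, 41 were seen in all 3 old libraries and 1 in all 3 young libraries, 59 were in no young library, and 24 were in both ages. For 21 of the 84, more than 80% of the counts came from 1 library. Examples, chosen after their values were seen, are Igkv4-74 with 346, 0 and 9 counts in old libraries, Igkv8-24 with 9, 4 and 262, and Igkv2-137 with 108, 0 and 0, all 3 with 0 in every young library.

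By family, Igkv4 genes made up 26.8%, 13.2% and 15.6% of kappa V counts in old libraries, against 0%, 15.1% and 5.41% in young libraries. Igkv3 genes made up 17.2%, 14.7% and 25.6% in old libraries, against 34.98%, 0% and 0% in young libraries. Igkv1 genes made up 15.1%, 20.1% and 14.4% in old libraries, against 29.2%, 30.4% and 0% in young libraries. Each of these 3 families was seen in all old libraries and none of them in all young libraries. Among heavy chain V genes, the Ighv1 family had 50 models in the table, but 3 of the 93 genes and 146 counts over the 6 libraries, whereas Ighv7, with 4 models, had 319. These are reads of BALB/c mice assigned to C57BL/6 models, and the part of strain differences in the family counts was not tested.

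The kappa locus holds V genes in both orientations, since some rearrange by deletion and others by inversion. Genes on the plus strand, the orientation of Igkc, held 46.5%, 65.5% and 61.0% of kappa V counts in old libraries, against 98.1%, 61.7% and 59.5% in young libraries. They are 39 of the 103 kappa V models. The ages overlapped, and young replicate 1 was the highest.

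The genes nearest to the sum of 10 were low in every library. Just below it, Ighv1-16, Ighv1-5, Ighv5-4 and Igkv8-28 each had 9 counts in all, and just above it Ighv1-18 and Ighv4-1 had 10, Igkv4-90 had 11 and Ighv5-12 had 13. Of the 7 genes besides Igkv8-28 all counts were in old libraries, while Igkv8-28 had 2 in old replicate 2 and 7 in young replicate 1.

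Genes of the plasma cell, the antibody-secreting stage of the B lineage, were in part higher with the immunoglobulin genes. Of 15 plasma cell genes tested, 6 were higher in old libraries and none lower in edgeR, against 5.84% and 4.7% of all genes. In the DESeq2 test and at an unadjusted p under 0.05, 2 were lower. The median log2 fold change was 0.84 against -0.01 over all genes. The count higher was 4 without old replicate 1, old replicate 2, old replicate 3 or young replicate 1. It was 5 without young replicate 2 and 7 without young replicate 3, each with 1 lower. Jchain, the chain that links IgM and IgA into polymers, had 3140, 2116 and 4105 counts in old libraries, against 340, 341 and 44 in young libraries (log2 fold change 3.54, SE 0.67, adjusted p = 0.0179, edgeR). Its young replicate 3 was low, as for Igkc, and leaving out old replicate 1, old replicate 3, young replicate 1 or young replicate 2 ended its call. Mzb1, an endoplasmic reticulum protein of antibody assembly, had 331, 377 and 635 counts in old libraries, against 39, 30 and 21 in young libraries (3.75, SE 0.39, adjusted p = 0.00199). Pou2af1, a coactivator of immunoglobulin transcription, had 189, 246 and 417 counts in old libraries, against 29, 29 and 6 in young libraries (3.59, SE 0.59, adjusted p = 0.0104). Pou2af1 depended on the old libraries to be tested, so its values, and the count called in this list, are a description.

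Sdc1, a surface proteoglycan of plasma cells and of many other cells, was higher by 0.94 on the log2 scale (SE 0.14, adjusted p = 0.00672, edgeR). Xbp1, a transcription factor of secretory cells in general, had a log2 fold change of 0.02 (adjusted p = 0.948). The summed level of the plasma cell list was 1484 to 1688 CPM in old and 1175 to 1286 CPM in young libraries, and no listed gene was at 0 in all young libraries. None of 13 tested genes of antibody folding, secretion and transport was called in either direction by edgeR or limma-voom (median -0.03), the DESeq2 test called 1 lower, and at an unadjusted p under 0.05 1 was higher and 2 lower. Their sums were 4356 to 4653 CPM in old and 4331 to 5158 CPM in young libraries, and Pigr, the receptor that carries IgA and IgM across epithelia, was at 0 in all libraries.

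B-lineage markers outside the immunoglobulin loci were in part higher as well. Of 13 tested, 8 were higher and 1, Blnk, lower in old libraries, against 5.84% and 4.7% of all genes tested. The median log2 fold change was 1.83. Ms4a1, which encodes CD20, had 271, 207 and 419 counts in old libraries, against 31, 35 and 20 in young libraries (log2 fold change 3.22, SE 0.38, adjusted p = 0.00283, edgeR). Cd79a, a signalling chain of the B cell receptor, had 171, 170 and 259 counts in old libraries, against 22, 35 and 17 in young libraries (2.86, SE 0.36, adjusted p = 0.00382). Tnfrsf13c, the receptor for the survival factor BAFF, had 61, 76 and 99 counts in old libraries, against 4, 7 and 12 in young libraries (3.18, SE 0.49, adjusted p = 0.00855). Tnfrsf13c depended on the old libraries to be tested, so its values, and the count called in this list, are a description. The list summed to 202 to 219 CPM in old and 147.5 to 184 CPM in young libraries. Pax5, the B cell commitment factor, had 2, 4 and 0 counts in old libraries and 0 in all young libraries, and Cr2 was at 0 in all libraries. The number of higher calls fell to 3 without old replicate 1 or old replicate 2, and to 4 without old replicate 3 or young replicate 1. The count lower was 0 without old replicate 1, old replicate 2, old replicate 3 or young replicate 2.

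Genes of B cell precursors and V(D)J recombination were mostly not called. Of 8 tested, 1 was higher, Il7r (2.26-fold, log2 SE 0.13, adjusted p = 0.00230, edgeR), the receptor chain for interleukin 7, and none was lower, with a median of -0.08. Of all genes tested, 5.84% were higher and 4.7% lower. Rag1, which with Rag2 makes the recombinase, and the surrogate light chain genes Igll1 and Vpreb2 were at 0 in all libraries. Vpreb1 had 6, 2 and 4 counts in old libraries, against 23, 7 and 12 in young libraries, and was not tested. Rag2 had 0 counts in all old libraries, against 0, 11 and 0 in young libraries. The list summed to 144 to 165 CPM in old and 134 to 153 CPM in young libraries.

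Markers of other marrow cells also differed with age, and their part in the immunoglobulin result was not tested. The counts called below stand beside 5.84% higher and 4.7% lower of all genes tested (edgeR). Of 8 megakaryocyte and platelet markers, 5 were higher in old libraries and none lower (sums 238 to 337 CPM in old, 50.5 to 88.2 in young libraries), and the count was 3 without old replicate 1, old replicate 2 or young replicate 1, and 2 without young replicate 3. Of 8 mast cell and basophil markers, 5 were higher and none lower (61.7 to 102 CPM in old, 21.5 to 27.96 in young libraries), and the count was 3 without old replicate 1 or young replicate 1 and 2 without old replicate 2, old replicate 3 or young replicate 2. Of 12 macrophage markers, 11 were lower and none higher (1971 to 2249 CPM in old, 3434 to 3783 in young libraries), and the count lower was 8 to 11 when each library was left out. Of 12 stromal and bone-forming markers, 2 were higher and 4 lower (24210 to 30510 CPM in old, 32310 to 71740 in young libraries). The count lower was 2 without old replicate 1 or old replicate 3, 7 in the DESeq2 test and 8 at an unadjusted p under 0.05. Of 9 tested T and NK cell markers 1 was lower (4.96 to 13.9 CPM in old, 17.3 to 28.4 in young libraries), of 9 neutrophil markers none was called by edgeR, with 3 lower at an unadjusted p under 0.05 and 2 lower in the DESeq2 test (902 to 1695 CPM in old, 1332 to 2315 in young libraries), and of 8 tested dendritic cell markers 1 was higher and 3 lower (213 to 252 CPM in old, 307 to 335.5 in young libraries). For T and NK cell markers the count lower was 2 without old replicate 3, and 3 without young replicate 3 and in the DESeq2 test. For dendritic cell markers the count lower was 0 without old replicate 1, old replicate 2, young replicate 1 or young replicate 2 and 1 without old replicate 3, and the count higher was 0 in every fit that left a library out except that without old replicate 1. Apart from Clec9a, a dendritic cell marker, none of these markers was at 0 in all libraries.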

How the data were processed

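RNA was sequenced in 3 old and 3 young libraries, as read pairs of 100 bp after unstranded low-input amplification, per the labels' protocols. The authors deposited a table of whole-number counts of reads per gene. The submitters' processing notes name the mm10 build, the aligners HISAT2 2.1.0 and STAR 2.6.1a, the trimmers Trim Galore 0.50 and cutadapt 1.18, and StringTie 1.3.4d. How reads were counted, and what was done with reads that map to several places, was not given in the sources used here, so reads of similar V genes may be split or lost. Reads carry no molecular identifiers, and intervals and floors cover counting error only.

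Symbols were matched to 37607 of 39017 identifiers with GENCODE M21, and unmatched ones held 0.339 to 0.398% of counts. Counts were tested in R 4.3.3 with edgeR 4.0.16 (filterByExpr, TMM, robust quasi-likelihood test, Benjamini-Hochberg over 15567 genes). Log2 fold changes are of old over young libraries, and CPM uses TMM-scaled library sizes. A floor is 3 counts. Shares were compared in scipy 1.17.1 by exact permutation over libraries. The edgeR fit was tried on simulated counts with folds far below those fitted for genes without a young count. Genes of that kind were thus not covered, and the comparison of shares was not simulated. Named were all constant genes, the 8 Igkv and 8 Ighv with the largest summed count, all Iglv, the leading V gene of each library, and up to 3 genes per list by smallest p. Other genes named were chosen after their values were seen. Some results that the rule would name are not reported here. The immunoglobulin genes and the lists were chosen with earlier results of these data known.

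Alternatives were DESeq2 1.42.0 size factors and test, upper-quartile factors, limma-voom (limma 3.58.1), other low-count filters, a replicate block, leaving out each library, counts per kilobase, V gene counts for the kappa share, and other sums for choosing genes.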

Additional observations from a re-analysis of the deposited data

How the results depend on the processing

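The 27 immunoglobulin genes called higher, of 35 tested, became 19 to 28 under the other scalings, tests and low-count filters. They became 22 to 29 when each library was left out, and none was lower under any of these. The number tested changed with the fit, so the share called moved more than the count. It was 24 of 93 with no low-count filter, 19 of 22 with at least 50 counts in 3 libraries, and 22 of 58 without young replicate 1. Of the 27 calls, 18 were kept in all 6 fits that left a library out. Single-gene results changed their call in 34 of 271 comparisons, 23 of them when a library was left out, and none reversed. Over all genes, the 909 higher calls became 418 to 1459 and the 731 lower calls 294 to 1168 when each library was left out, and the DESeq2 test called 1137 lower. The IgM share difference ran from -26.6 to -21.5 percentage points when each library was left out and was -18.4 points per kilobase. The kappa share difference ran from 1.62 points, without young replicate 3, to 20.3 points, and was 12.3 points per kilobase and 17.8 points over V genes. A share of IgM and IgD together could not be computed, since Ighd matched no identifier. A summed count of 5 or more would give 106 genes, one of 20 or more 82, and leaving out pseudogenes 92. Young light chain and V gene counts are few, which limits their shares.

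With the replicate number as a block, 24 immunoglobulin genes were called higher, and the calls of Igkv14-126, Igkv12-46 and Iglv1 were lost. Same-numbered old and young libraries deviated together only weakly (correlations of 0.088, 0.034 and 0.09), and the labels give no shared animal or day, so the numbers were not taken to pair the libraries.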
